A study of Mus musculus with 5 samples.

Results

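The mitochondrial genome of the mouse carries 37 annotated genes, out of 37310 in the annotation used here, and all 37 were followed in run-on reads of embryonic stem cells and embryonic fibroblasts. They were taken as every GENCODE gene on chromosome M of mm9, by symbols that begin with mt-, with no measured value used in the choice. The set held 2 rRNA genes, 13 protein genes and 22 tRNA genes, and 28 of the 37 lay on the plus strand.

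The mitochondrial genome is a small circle that is transcribed on both strands by its own RNA polymerase, POLRMT, from promoters in a noncoding control region. Each strand gives a long RNA that spans many genes, and most mRNAs and both rRNAs are freed when the tRNAs between them are cut out, at their 5′ ends by the mitochondrial RNase P and at their 3′ ends by ELAC2. The plus strand carries the rRNAs, most mRNAs and most tRNAs, whereas the minus strand codes only for mt-Nd6 and a few tRNAs, so that most of the minus-strand RNA is antisense to genes and is known to be short-lived. All protein products are subunits of the respiratory chain or of the ATP synthase.

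Global run-on sequencing (GRO-seq) lets engaged polymerases extend their RNA in isolated nuclei with brominated UTP, after which the RNA is broken by base, bound with an antibody against the bromine base and sequenced. The preparations were nuclei, so the mitochondrial reads come from whatever mitochondria stayed with them, and no mitochondria were isolated. The MESC group held 3 samples of the V6.5 line, derived from a cross of C57Bl/6(f) with 129/Sv(m), at passages 12 to 14, grown on irradiated feeder cells with LIF. The MEF group held 2 samples of fibroblasts of the same cross at passage 2, grown without LIF, from a male embryo of stage E13.5. Both groups carried no other treatment or allele in the labels. The reads of each group were deposited as 1 pooled list with no sample names, so no value below has a replicate check and no p-value was computed. Intervals are exact 95% intervals for counting error only, and because the reads carry no molecular identifiers these may be too narrow.

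The MESC list held 8616592 reads and the MEF list 6583644. MEF reads were all 35 bases long, whereas MESC reads were 35 bases (46.2%) or 36 bases (53.8%) long, and the labels do not say what this split stands for. Each of the 7 stem cell markers was over 4-fold higher in MESC (Pou5f1 had 286 reads in MESC and 3 in MEF), and each of the 7 fibroblast markers over 4-fold lower in MESC (Col1a1 had 84 reads in MESC and 4826 in MEF). Fibroblast marker reads in MESC ranged from 3 to 369 per gene, and the part of feeder RNA in the mitochondrial values was not tested. The median gene outside chromosome M had a MESC over MEF ratio of densities of 1.20 (0.26 on the log2 scale), a shift that TMM or median-ratio scaling moved to 0.02 or 0.01, so ratios of mitochondrial genes are read against it.

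The positions on which the results turn are shown first, read from the mm9 (NCBIM37) sequence of chromosome M, 5′ to 3′ on the strand of the reads. The capital marks the base at which the reads began. The first 2 are the only single-position pile-ups, both on the minus strand in the control region (chrM:15423-16299), the next 2 are the annotated first bases of the rRNA genes, and the last 2 are a base that follows a tRNA gene and the position inside a gene with the most MESC reads.

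Minus-strand pile-up, chrM:16153-16198, position 16188: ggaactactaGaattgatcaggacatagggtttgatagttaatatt

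Minus-strand pile-up, chrM:16152-16197, position 16187: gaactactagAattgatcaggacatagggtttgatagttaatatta

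mt-Rnr1 first base, plus strand, chrM:60-105, position 70: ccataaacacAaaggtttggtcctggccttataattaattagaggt

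mt-Rnr2 first base, plus strand, chrM:1084-1129, position 1094: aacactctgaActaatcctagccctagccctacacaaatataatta

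Base after mt-Tw, plus strand, chrM:5007-5052, position 5017: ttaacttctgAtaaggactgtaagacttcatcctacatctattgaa

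Antisense in mt-Cytb, minus strand, chrM:14260-14305, position 14295: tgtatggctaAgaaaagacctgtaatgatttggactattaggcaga

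Reads listed on chromosome M made up 0.525% of the MESC reads (45197 reads, 0.520 to 0.529) and 0.190% of the MEF reads (12528 reads, 0.187 to 0.194). The MESC share differed between its read lengths, at 0.822% of the 36-base reads and 0.179% of the 35-base reads. The 35-base reads of MESC thus lay near the MEF share, and the 36-base reads carried the excess. With each position and strand counted once, 8171 positions in MESC (0.127% of all occupied positions) and 3882 in MEF (0.0826%) remained. Fewer mitochondria per nucleus preparation and less run-on RNA per mitochondrion cannot be told apart in such shares.

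A single base of the control region took much of this RNA in MESC. Position 16188 on the minus strand began 18252 MESC reads, 40.4% of all MESC reads on chromosome M (39.9 to 40.8), and 360 MEF reads, 2.87% (2.59 to 3.18). Scaled to 1000000 reads outside chromosome M (RPM), these were 2129 RPM in MESC and 54.8 RPM in MEF, a ratio of 38.9 (35 to 43.3). Position 16187 was the only other pile-up by the rule of at least 1% of a library's chromosome M reads, with 528 reads in MESC and 9 in MEF. No position held 50% or more of the sense reads of a gene with at least 20. The light-strand promoter, from which minus-strand transcription and the primers for replication begin, is known to lie in the control region. The protocol treated 5′ ends with tobacco acid pyrophosphatase, which opens caps and triphosphates, before the adapter was joined. Whether the reads at 16188 began at that promoter was not tested.

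The excess at position 16188 was present in both read lengths of MESC, at different sizes. The 36-base reads had 3674 RPM there, against 54.8 RPM in MEF, 67.1 times as many (60.4 to 74.6). The 35-base reads had 344 RPM, 6.28 times the MEF value (5.59 to 7.07). It was also the position with the most chromosome M reads in MEF. The 17 bases from 16176 to 16192 together held 20216 MESC reads (44.7% of those on chromosome M) and 461 MEF reads (3.68%), and within them the MESC reads fell mainly on 16188 with a second, smaller group from 16179 to 16184. The second highest of these bases in MEF was 16183, with 109 reads in MESC and 46 in MEF.

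**Figure D1:**
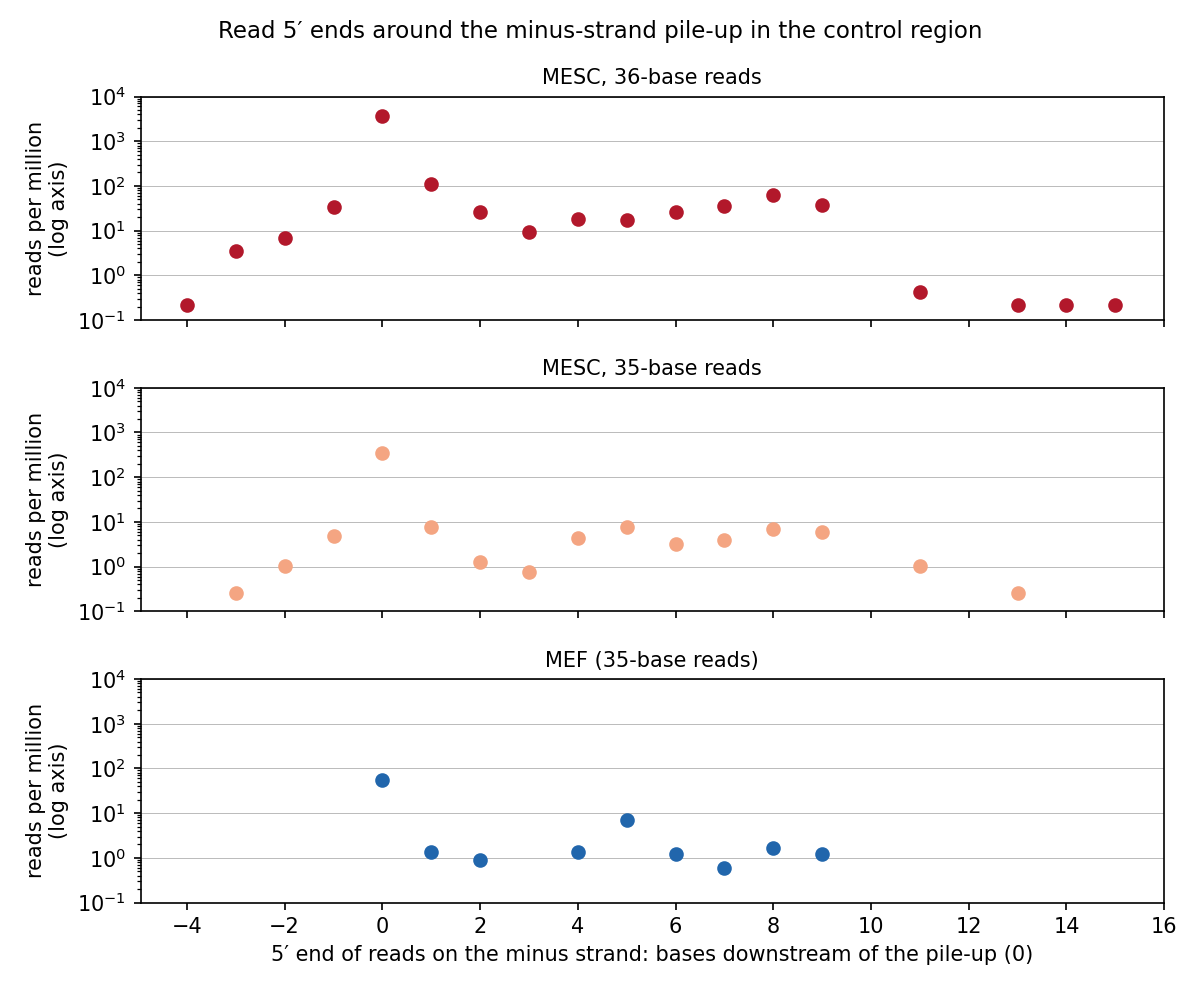
RPM (vertical, log axis) by the base at which they began on the minus strand (horizontal, bases downstream of position 16188) in the 36-base reads of MESC, the 35-base reads of MESC and MEF; each point is 1 base of 1 read set, and bases with no read have no point. The base at 0 stands highest in all 3 panels, at 3674, 344 and 54.8 RPM.

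The RNA that began at the pile-up could be followed at its other end where it was shorter than the read. In 2552 chromosome M reads of MESC (5.65%) and 647 of MEF (5.16%) the sequence left the genome for the letters TCGTA, with which the 3′ adapter of early small RNA kits begins, although the labels do not give the adapter used; at least 3 of these letters were required, so the longest RNA a 36-base read can show is 33 bases. At position 16188, 637 MESC reads (3.49%) and 10 MEF reads (2.78%) did so, and in MESC the commonest length was that longest one, with its end at position 16156. At 16179, 151 of 198 MESC reads had such an end, most often after 33 bases at 16147. Most listed reads that began at 16188 thus showed no end within the read, while most that began at 16179 did. The commonest length at 16188 was 33 bases in MESC (284 of the 637 reads) and 29 in MEF (5 of the 10 reads). MEF reads were all 35 bases long, so with 3 adapter letters required they could not show a length of 33 bases. Whether the RNA from 16188 was shorter in MEF was therefore not tested by these lengths. Since the lists hold only aligned reads, much shorter RNAs may be missing from these shares.

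The strongest position inside a gene in MESC lay on the strand opposite to mt-Cytb, the cytochrome b subunit of complex III. Position 14295 on the minus strand began 333 reads in MESC (0.737% of those on chromosome M) and 16 in MEF (0.128%), below the 1% rule. Of the 333 MESC reads, 231 (69.4%) ended within the read, and 129 of these were 32 bases long with their last base at 14264. The ratio of RPM was 6.10 (3.46 to 11.3) for the 35-base reads and 24.5 (14.8 to 43.4) for the 36-base reads of MESC over MEF. In MEF the highest positions after 16188 lay antisense to mt-Nd5, a complex I subunit, at 11822 (46 reads in MESC and 79 in MEF) and at 11809 (68 in MESC and 72 in MEF).

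Where a read was listed depended on copies of mitochondrial sequence in the nuclear genome, which had to be settled before genes could be compared. Of 16268 windows of 32 bases on chromosome M, 6617 (40.7%) occur exactly on another chromosome, and the longest copy, chr1:24618374-24623023, repeats chrM:6394-11042 from mt-Co1 to mt-Nd4. In that stretch 5629 of the 36-base MESC reads, 3 of the 35-base MESC reads and 24 of the MEF reads were listed on chromosome M. Reads with an exact chromosome M sequence were listed on a nuclear chromosome in 2.26% of cases among 36-base MESC reads, 36.4% among 35-base MESC reads and 41.0% among MEF reads. Of these nuclear listings, 0 of the 684 36-base reads, 2482 of the 3468 35-base MESC reads and 5281 of the 7179 MEF reads lay on the copy on chromosome 1. The listing therefore differed between the read lengths for the same sequences.

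Each gene is therefore given as listed and also by sequence, counting every read whose whole sequence occurs on chromosome M wherever it was listed. By sequence, mitochondrial reads were 0.462% of MESC (0.239% of its 35-base and 0.653% of its 36-base reads) and 0.266% of MEF. Reads made from the nuclear copies themselves cannot be told apart from mitochondrial reads in this count. Inside genes, both strands together, the sequence-matched reads were 1940 RPM in the 35-base and 3027 RPM in the 36-base MESC reads, and 2515 RPM in MEF, so that MEF lay between the parts of MESC.

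As listed, 21 of the 37 genes had at least 50 sense reads in 1 library, of which 9 passed 4-fold with MESC higher and 0 with MEF higher. Across all 12893 annotated genes tested in this way, 13% differed by 4-fold, 7.69% being higher in MESC and 5.26% higher in MEF. The 9 were mt-Co2, mt-Co3, mt-Atp6, mt-Nd3, mt-Nd4l, mt-Nd4, mt-Ty, mt-Tg and mt-Th, which lie in stretches with nuclear copies (57.4% to 100% of their start positions had one). By sequence, 0 of 21 differed by 4-fold and the ratios ran from 0.757 to 2.17. Restricted to start positions with no nuclear copy, 0 of 13 tested genes did, and with the 35-base MESC reads as listed 0 of 10 did, against 5.2% of all genes higher in MESC and 6.6% higher in MEF. The 36-base reads as listed had 10 of 19 genes higher in MESC and 0 in MEF, against 5.96% and 5.7% of all genes. With each position counted once, 5 of 14 genes were higher in MESC (mt-Co2, mt-Atp6, mt-Co3, mt-Nd3 and mt-Nd4) and 0 in MEF, against 6.82% and 5.21% of all genes, and all 5 lie at least in part under the copy on chromosome 1.

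**Figure D2:**
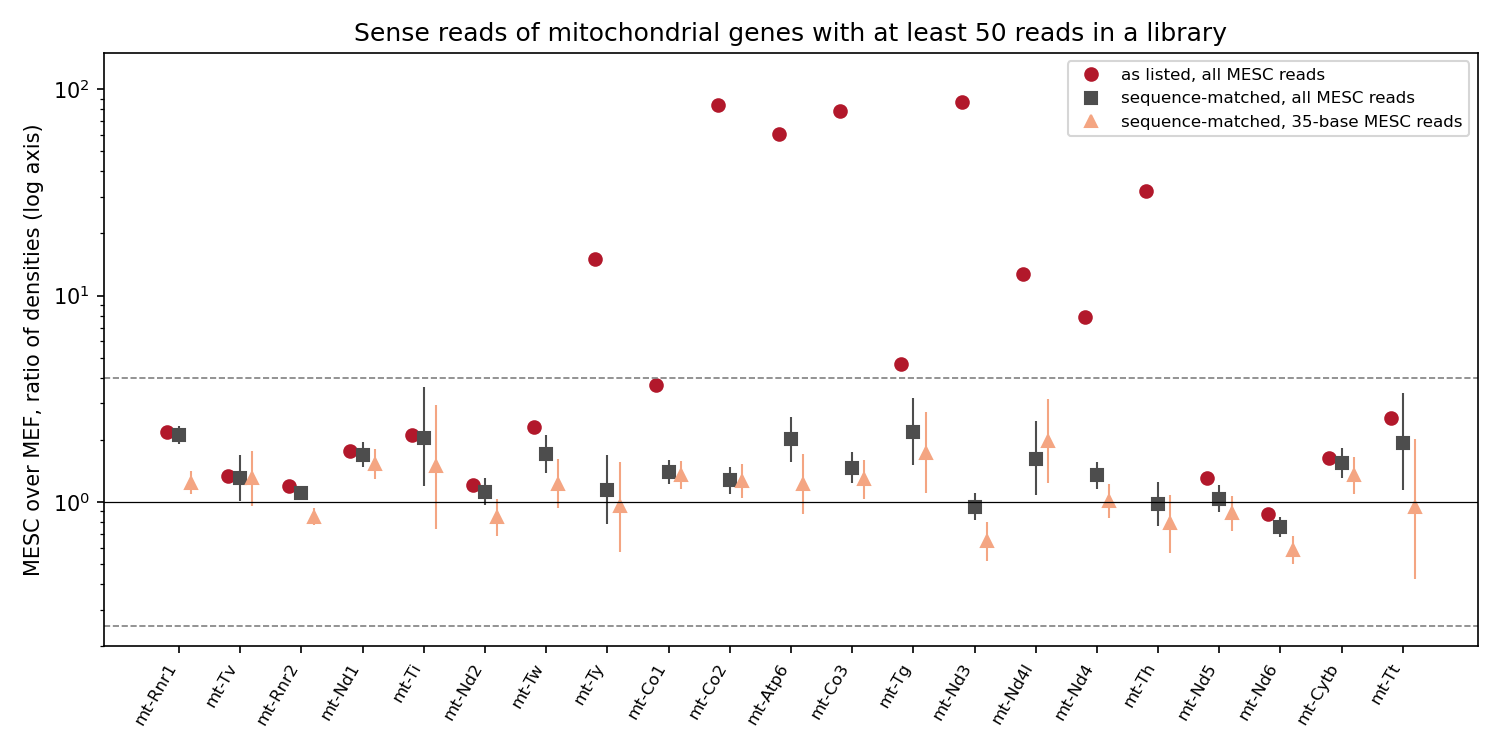
MESC over MEF ratio of sense densities (log axis) for each of the 21 mitochondrial genes tested, in genome order: circles as listed (3 reads standing for lower counts, so genes with no MEF read are lower bounds), squares by sequence, triangles by sequence with the 35-base MESC reads alone; lines are exact 95% intervals and dashes mark 4-fold. The 9 circles above 4 fall to between 0.948 and 2.17 when reads are counted by sequence.

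The median log2 ratio of the 21 genes was 1.34 as listed and 0.48 by sequence, against 0.26 for genes outside chromosome M. With the 35-base MESC reads alone it was 0.29 (16 genes), against 0.14, and with the 36-base reads 0.52 (17 genes), against 0.21. Set against the median gene outside chromosome M, 8 genes were higher in MESC with an interval above 1, which were mt-Rnr1, mt-Nd1, mt-Tw, mt-Co1, mt-Atp6, mt-Co3, mt-Tg and mt-Cytb. By the same measure 3 were lower in MESC, mt-Rnr2, mt-Nd3 and mt-Nd6, and the intervals of the other 10 held 1. These ratios may be low, as they count exact matches only and the median counts all reads. Exact matches were 73.3% of all MESC and 79.1% of all MEF reads. On start positions with no nuclear copy, mismatches kept, the interval of mt-Rnr2 held the median of 1.20 (ratio 1.16, upper limit 1.24). That of mt-Nd6 lay below it (0.871, 0.788 to 0.963), and mt-Nd3 was not tested. Those of mt-Ti and mt-Tt lay above it (lower limits 1.28 and 1.43). What share of all genes had a counting interval off that median was not computed, so whether such counts are unusual was not tested. With the 35-base MESC reads alone 4 were higher and 6 lower, and with the 36-base reads 12 were higher and 1 lower. Only mt-Nd1, mt-Co1 and mt-Tg were higher and only mt-Nd6 lower in all 3 of these counts. In the ratios themselves, both parts of MESC lay above 1 in 13 genes and below 1 in mt-Nd6, and on either side of 1 in 7, namely mt-Rnr2, mt-Nd2, mt-Nd3, mt-Nd5, mt-Ty, mt-Th and mt-Tt.

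The MESC over MEF ratios of the 2 rRNA genes differed. mt-Rnr1, the small-subunit rRNA of the mitochondrial ribosome (chrM:70-1024), had 1749 listed sense reads in MESC and 616 in MEF, and sequence-matched densities of 181 RPKM (RPM per kb of gene) in MESC and 85.6 RPKM in MEF. Its ratio by sequence was 2.11 (1.91 to 2.33), at 1.24 (1.09 to 1.41) for the 35-base and 2.86 (2.58 to 3.18) for the 36-base MESC reads. mt-Rnr2, the large-subunit rRNA (chrM:1094-2675), had 2258 listed reads in MESC and 1446 in MEF, with sequence-matched densities of 144 RPKM in MESC and 130 RPKM in MEF. Its ratio was 1.10 (1.03 to 1.19), and it lay below 1 for the 35-base reads (0.848, 0.773 to 0.930) and above 1 for the 36-base reads (1.33, 1.23 to 1.43). MESC was thus above MEF for mt-Rnr1 in both read lengths, and on either side of it for mt-Rnr2. Set against the median gene outside chromosome M in the 35-base reads (1.10), the interval of mt-Rnr1 held 1.

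Over both rRNA genes the sense density was 3.16 times (3.03 to 3.31) that of the plus-strand mRNA genes in MESC and 3.03 times (2.86 to 3.22) in MEF by sequence. As listed the ratios were 3.61 in MESC and 6.26 in MEF, where the mRNA genes under the copy on chromosome 1 had few or no MEF reads. On start positions with no nuclear copy they were 3.40 in MESC and 3.48 in MEF. The parts of MESC lay on either side of MEF by sequence, at 2.57 (2.38 to 2.77) in the 35-base and 3.55 (3.36 to 3.75) in the 36-base reads, and with each listed position counted once the ratios were 1.96 in MESC and 3.96 in MEF. The rRNA genes were thus denser than the mRNA genes in all of these counts, but which cell type had the higher ratio depended on the reads counted.

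Among the genes for complex I, the NADH dehydrogenase, mt-Nd1 was higher in MESC and mt-Nd6 lower. mt-Nd1 (chrM:2751-3707) had 827 listed reads in MESC and 361 in MEF, and its ratio by sequence was 1.69 (1.48 to 1.94), at 1.52 and 1.84 in the 35-base and 36-base reads. mt-Nd6, the only protein gene on the minus strand (chrM:13552-14070), had 841 listed reads in MESC and 742 in MEF and a ratio of 0.757 (0.676 to 0.847), at 0.586 and 0.904 in the 35-base and 36-base reads. Of the protein genes it had the highest sense density by sequence, 139 RPKM in MESC and 184 RPKM in MEF.

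The other complex I genes had ratios by sequence between 0.948 and 1.62. mt-Nd3 had 339 listed reads in MESC and 0 in MEF, a listed ratio of at least 86.6, but 381 in MESC and 308 in MEF by sequence, a ratio of 0.948 (0.814 to 1.11). Its parts fell on either side, at 0.644 (0.517 to 0.798) in the 35-base and 1.21 (1.02 to 1.43) in the 36-base reads. mt-Nd4 had 442 listed reads in MESC and 43 in MEF, and 496 in MESC and 283 in MEF by sequence, a ratio of 1.34 (1.16 to 1.56), with 1.01 in the 35-base and 1.63 in the 36-base reads. mt-Nd4l, which overlaps the start of mt-Nd4, had 50 listed reads in MESC and 0 in MEF, and 76 in MESC and 36 in MEF by sequence (1.62, 1.07 to 2.48). The last 2 subunits lie mostly outside the shared stretches. mt-Nd2 had 538 listed reads in MESC and 341 in MEF, and mt-Nd5 had 493 in MESC and 290 in MEF, with ratios by sequence of 1.12 (0.963 to 1.30) and 1.03 (0.889 to 1.20).

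For complexes III and IV the ratios by sequence lay between 1.27 and 1.54. mt-Cytb had 511 listed reads in MESC and 239 in MEF, and its ratio was 1.54 (1.30 to 1.83). mt-Co1, which codes for the subunit of cytochrome oxidase that binds oxygen, had 637 listed reads in MESC and 132 in MEF, and by sequence 669 in MESC and 368 in MEF, a ratio of 1.39 (1.22 to 1.59) with 1.34 and 1.44 in the 35-base and 36-base reads. mt-Co2 had 330 listed reads in MESC and 0 in MEF, a listed ratio of at least 84.3, and by sequence 442 in MESC and 267 in MEF, a ratio of 1.27 (1.09 to 1.48). mt-Co3 had 306 listed reads in MESC and 0 in MEF, and by sequence 376 in MESC and 197 in MEF, a ratio of 1.46 (1.23 to 1.75). All 3 oxidase genes thus had intervals above 1, but for mt-Co2 the interval held the ratio of the median gene outside chromosome M.

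Of the ATP synthase genes, which overlap each other, mt-Atp6 had 238 listed reads in MESC and 0 in MEF, and by sequence 233 in MESC and 89 in MEF, a ratio of 2.01 (1.57 to 2.59). The 35-base MESC reads gave 1.23 and the 36-base reads 2.68 for it. mt-Atp8 had 31 listed reads in MESC and 0 in MEF, and by sequence 36 in MESC and 12 in MEF, too few to be tested.

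Among the 22 tRNA genes, 8 are named here, because they had the most reads or differed by 4-fold as listed. mt-Tw, the tRNA for tryptophan, had 280 listed sense reads in MESC and 93 in MEF, and by sequence the highest density of the 37 genes, 495 RPKM in MESC and 291 RPKM in MEF, with a ratio of 1.70 (1.38 to 2.11). mt-Tv, the tRNA for valine between the rRNA genes, had 193 listed reads in MESC and 111 in MEF, and a ratio by sequence of 1.30 (1.01 to 1.69). mt-Tg, for glycine, had 91 listed reads in MESC and 15 in MEF, and by sequence 116 in MESC and 41 in MEF (2.17, 1.51 to 3.18). All 3 had intervals above 1, but that of mt-Tv held the ratio of the median gene outside chromosome M.

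mt-Th, for histidine, had 126 listed reads in MESC and 1 in MEF, a listed ratio of 96.6 whose interval ran from 17 to 3845. By sequence it had 158 reads in MESC and 124 in MEF (0.977, 0.767 to 1.25). mt-Ty, for tyrosine, had 59 listed reads in MESC and 0 in MEF, and by sequence 70 in MESC and 47 in MEF (1.14, 0.778 to 1.69). The listed excess of MESC at both genes was not present in the counts by sequence. mt-Ti, for isoleucine, had 63 listed reads in MESC and 23 in MEF, and a ratio by sequence of 2.03 (1.19 to 3.59). mt-Tt, for threonine, had 53 listed reads in MESC and 16 in MEF, and a ratio by sequence of 1.93 (1.15 to 3.38), with 0.945 in the 35-base and 2.79 in the 36-base reads. mt-Tl1, for leucine, had 48 listed reads in MESC and 25 in MEF, and by sequence 33 in MESC and 16 in MEF, too few to be tested. The other 14 tRNA genes had 1 to 21 listed reads in MESC and 0 to 11 in MEF, and 4 of them had none in MEF.

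Most run-on reads of the mitochondrial genome came from the minus strand, which codes for few genes. The plus strand held 21.8% of the listed chromosome M reads in MESC and 30.5% in MEF, and without the 2 pile-up positions 37.3% in MESC and 31.5% in MEF. The lower plus share of MESC therefore turned round once the pile-ups were left out. With the pile-ups kept, it was 34.8% in the 35-base and 19.4% in the 36-base MESC reads, on either side of MEF. In the control region 8 MESC reads and 0 MEF reads were on the plus strand, against 20683 MESC reads and 739 MEF reads on the minus strand.

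Inside genes, 56.4% of the listed reads in MESC (55.8 to 57.1) and 61.5% in MEF (60.6 to 62.4) were antisense, and the share depended on the class of gene. By sequence, 3.13% of rRNA gene reads in MESC and 3.12% in MEF were antisense, 68.7% of protein gene reads in MESC and 76.3% in MEF, and 20.1% of tRNA gene reads in MESC and 19.4% in MEF. Among the 12 plus-strand protein genes the antisense share was over 50% in 9 genes in MESC and in 11 in MEF. It was lower in MESC for 11 of the 12, and the intervals did not overlap for 10. The intervals of mt-Nd3 and mt-Cytb overlapped. These gene counts use all MESC reads, and neither the share over all annotated genes nor the count in each read length was computed. Whether such counts are unusual was therefore not tested. The protein gene share was below that of MEF in both parts of MESC, at 66.4% of its 35-base and 70.0% of its 36-base reads.

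Among the plus-strand protein genes the antisense share was highest in mt-Nd5 in MESC and in mt-Nd4l in MEF, and lowest in mt-Co1 in MESC and in mt-Nd3 in MEF. In mt-Nd5 it was 87.7% in MESC and 90.5% in MEF, in mt-Cytb 81.1% in MESC and 84.7% in MEF, and in mt-Nd4l 82.6% in MESC and 93.4% in MEF. In mt-Nd3 it was 46.6% in MESC and 43.0% in MEF, in mt-Nd1 57.0% in MESC and 73.5% in MEF, and in mt-Co1 39.0% in MESC and 51.1% in MEF. mt-Nd6, whose own strand is the minus strand, had 7.90% antisense reads in MESC and 4.43% in MEF.

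**Figure D3:**
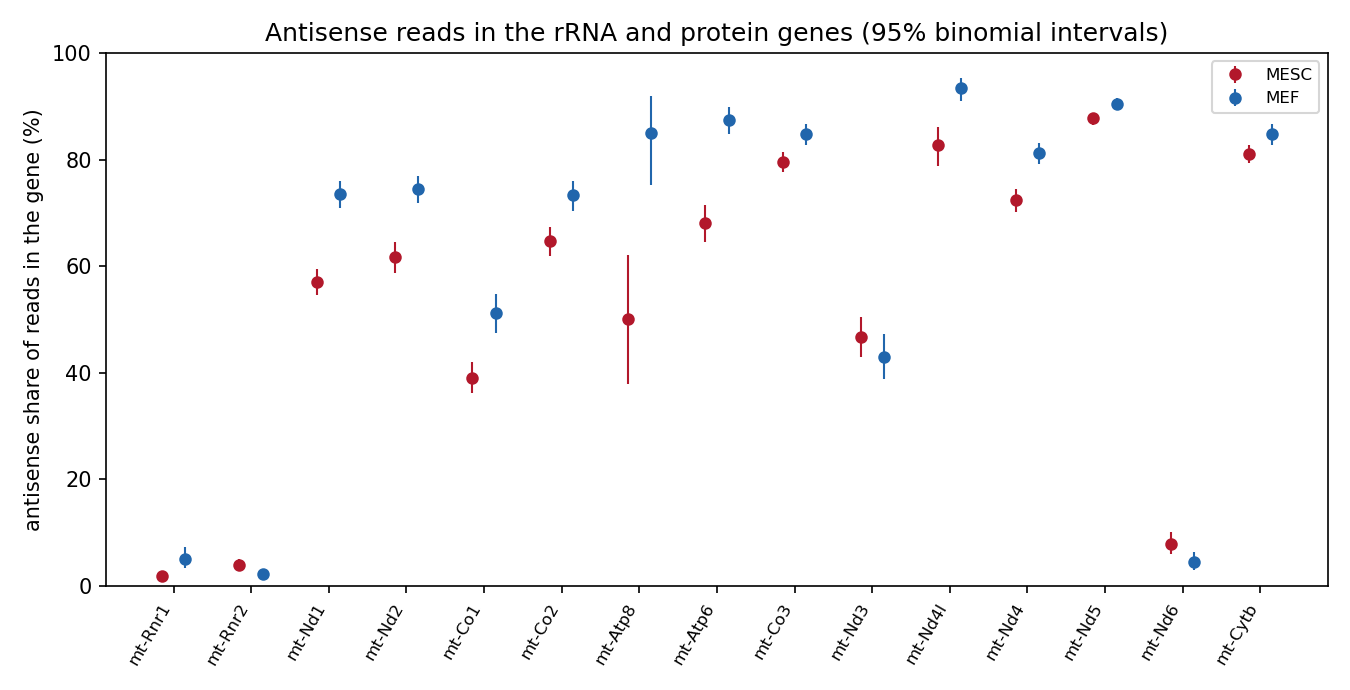
Antisense share of the sequence-matched reads (vertical, percent) in the 2 rRNA and 13 protein genes, in genome order, in MESC (left point of each pair) and MEF (right point), with exact 95% intervals. Both rRNA genes and mt-Nd6 lie below 8%, and MEF lies above MESC in 11 of the 12 plus-strand protein genes. MESC points use reads of both lengths, and whether that count is unusual was not tested.

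Along the genome the minus-strand density declined with distance from the pile-up and ended at the rRNA genes. Read by sequence in bins of 500 bases, it averaged 159 RPKM in MESC and 176 RPKM in MEF between 500 and 5000 bases downstream of position 16188. It averaged 112 in MESC and 138 in MEF from 5000 to 9500 bases, and 63.6 in MESC and 82.7 in MEF from 9500 to 13500 bases. Over the rRNA genes, from 13500 to 16000 bases, it averaged 5.09 in MESC and 3.59 in MEF. The plus strand ran the other way, with 30.7 RPKM in MESC and 24.8 RPKM in MEF in the first of these stretches. Over the rRNA genes it had 166 RPKM in MESC and 120 RPKM in MEF. On the minus strand the first stretch had 112 RPKM in the 35-base and 198 RPKM in the 36-base MESC reads, on either side of MEF. Over the rRNA genes the plus strand had 117 RPKM and 209 RPKM in them, also on either side. In the other averages given here both parts of MESC lay on the same side of MEF. Single bins departed from the trend, with minus-strand values from 29.4 to 183 in MESC and from 26.2 to 198 in MEF between 9500 and 13500 bases.

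**Figure D4:**
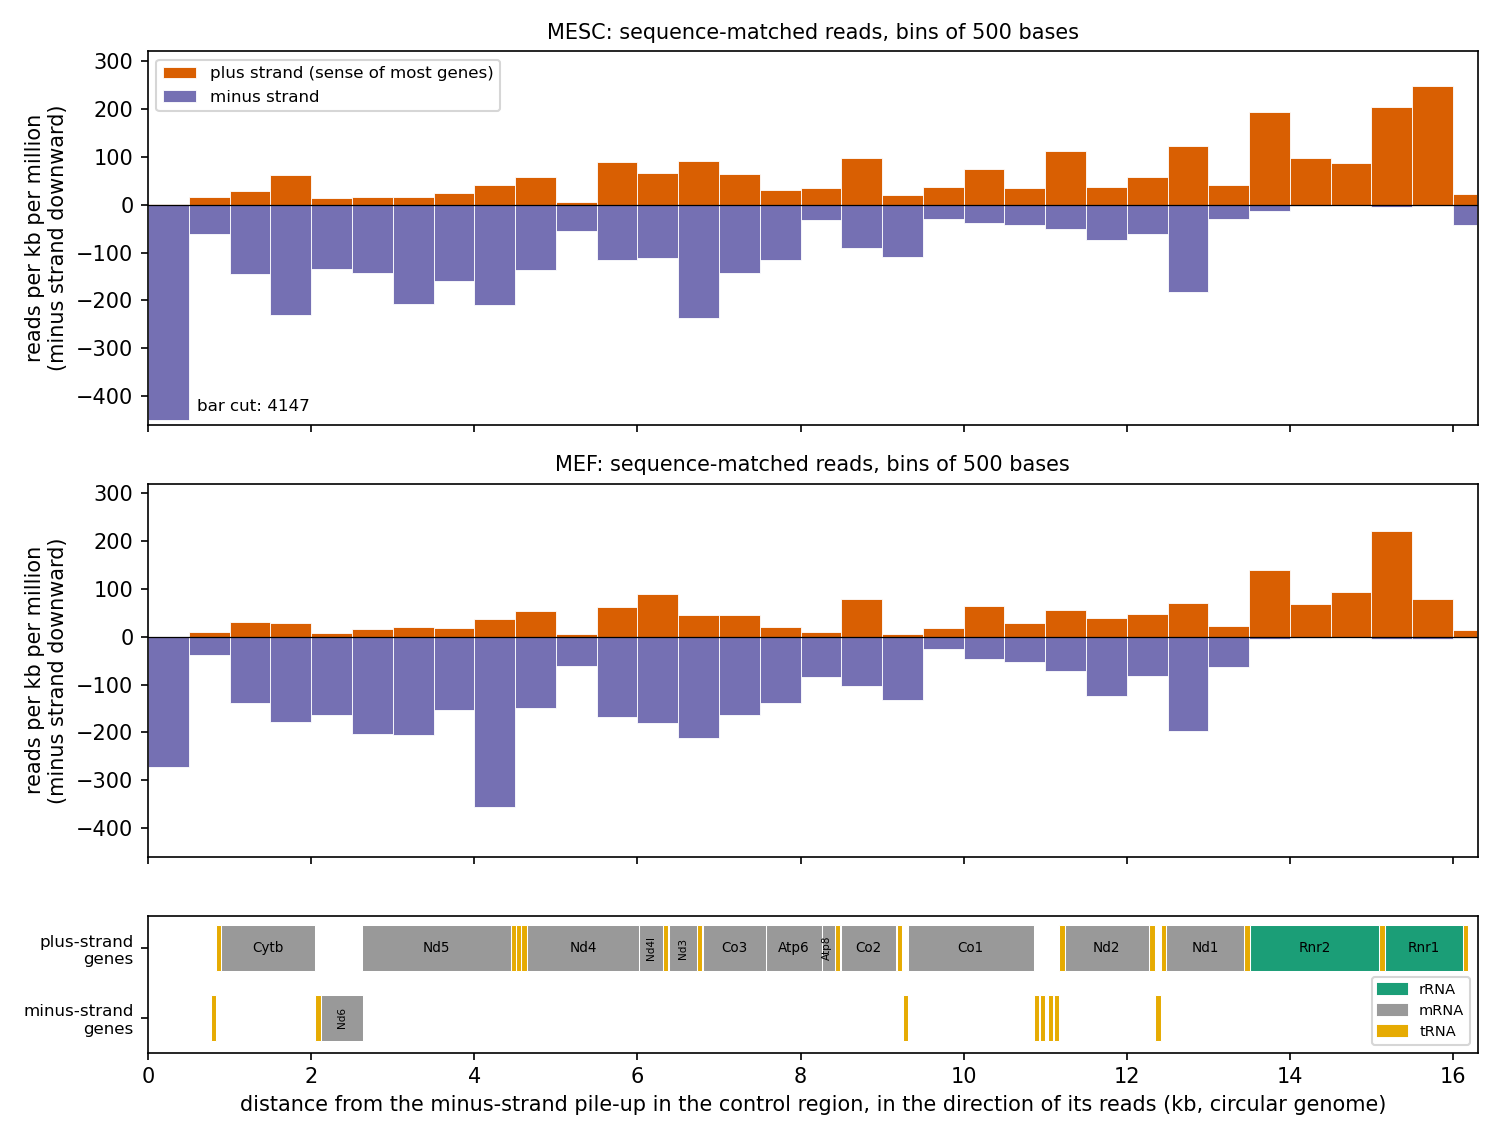
RPKM of sequence-matched reads in bins of 500 bases, plus strand upward and minus strand downward, in MESC (top) and MEF (middle), by distance in kb from the minus-strand pile-up, with the genes below by strand and class. The first minus-strand bar of MESC is cut off and reaches 4147, the MEF bar there is 271, and minus-strand bars are near 0 over mt-Rnr2 and mt-Rnr1 in both libraries.

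The drop of minus-strand reads lay between the start of mt-Nd1 and position 2375 inside mt-Rnr2, and it was not even along this stretch. On the minus strand mt-Nd1 had 110 RPKM in MESC and 136 RPKM in MEF, against 6.05 in MESC and 3.08 in MEF in mt-Rnr2 and 3.54 in MESC and 4.62 in MEF in mt-Rnr1. In the first 100 bases of mt-Nd1 there were 40 minus-strand reads in MESC and 97 in MEF, in the 75 bases of mt-Tl1 17 in MESC and 9 in MEF, and in the last 100 bases of mt-Rnr2 6 in MESC and 1 in MEF. Further inside mt-Rnr2 the minus-strand reads were again more, 28 in MESC and 12 in MEF from 2476 to 2575 and 19 in MESC and 4 in MEF from 2376 to 2475, before 1 in each from 2276 to 2375. The human factor MTERF1 is known to bind within the gene for this leucine tRNA and to stop transcription there, but its binding was not measured here.

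Most gene-strand reads did not begin at annotated gene starts. Because the RNA was broken by base before sequencing, pieces of mature RNA would also begin mostly inside genes. Whether the reads came from mature RNA was therefore not tested. As listed, within 2 bases of an annotated gene start, on the strand of the gene, lay 1.65% of gene-strand reads in MESC (176 of 10636) and 1.65% in MEF (75 of 4538), against 1.19% of the bases. By sequence the shares were 1.78% in MESC (1.52 to 2.06) and 1.38% in MEF (1.09 to 1.71). As listed, the exact first base held 1.21% in MESC and 1.19% in MEF, against 0.240% of the bases. The first base of mt-Rnr2, position 1094, held 64 of the 129 first-base reads in MESC and 38 of 54 in MEF, where the 50 bases around it had a median of 0 in MESC and 0.5 in MEF. mt-Rnr1 had 15 reads in MESC and 8 in MEF at its first base, position 70. The base after mt-Tw, position 5017, had 48 reads in MESC and 1 in MEF, with a maximum of 39 in MESC and 25 in MEF among the 50 bases around it.

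Mature tRNAs carry a CCA at the 3′ end that is not in the genome and is added after cutting by TRNT1. Among reads that began in a tRNA gene and ran at least 3 bases past its end, 0 of 460 in MESC and 0 of 183 in MEF went on with CCA, which, with 3 reads as the limit of a count of 0, allows shares of up to 0.652% in MESC and 1.64% in MEF. The genome sequence went on in 458 of these reads in MESC and in 182 in MEF. Most came from 2 genes, mt-Tw (249 in MESC and 93 in MEF) and mt-Tv (78 in MESC and 42 in MEF). The deposited lists hold only aligned reads, and a read of a mature tRNA would leave the genome at the end of the gene. A read that ran far past that end would hold many mismatches and may not have been listed. These limits therefore hold for the reads that could be listed and do not bound the share of mature tRNA ends.

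None of the nuclear genes tested whose products transcribe and process this genome passed 4-fold between the cell types. Of 55 tested genes for mitochondrial transcription, RNA processing and their regulators, 0 were 4-fold different in either direction, against 13% of all genes, with a median log2 ratio of 0.48 (range -0.99 to 1.56), against 0.26 for all genes outside chromosome M. Polrmt, the polymerase, had 109 sense reads in MESC and 61 in MEF (1.37, 0.992 to 1.91). Tfam, which packs the mitochondrial DNA and opens its promoters, had 326 in MESC and 121 in MEF (2.07, 1.67 to 2.57), and Tfb2m, which melts the promoter for POLRMT, had 174 in MESC and 70 in MEF (1.91, 1.44 to 2.55). The elongation factor Tefm, annotated here as 1110002N22Rik, had 267 in MESC and 107 in MEF (1.91, 1.52 to 2.42). Lrpprc, which keeps mitochondrial mRNAs stable, had 1021 in MESC and 456 in MEF (1.72, 1.54 to 1.92).

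The nuclear genes for subunits of the same complexes did not pass 4-fold either. Of 73 tested respiratory chain and ATP synthase subunits, 0 were 4-fold different, against 13% of all genes, with a median log2 ratio of 0.32 (range -0.40 to 1.18), against 0.26 for all genes outside chromosome M. By complex the medians were 0.31 for complex I (34 genes), 0.22 for complex II (4), 0.34 for complex III (9), 0.34 for complex IV (12) and 0.29 for the ATP synthase (14).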

How the data were processed

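GRO-seq reads of MESC (3 samples) and MEF (2 samples) were used as deposited, 1 read list per group, pooled by the authors. Per the file headers each list holds aligned reads with position, strand and sequence, so the unit is a read count per position (1 per line), with no normalization. Per the labels, alignment was with Eland to mm9 and reads at loci annotated as similar to rRNA were removed; the lists nevertheless held 11.5% of MESC and 16.4% of MEF reads at a pair of loci similar to ribosomal DNA. The Eland version and its treatment of reads with several matches are not stated by any source used here.

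Positions were checked against NCBIM37: 93.0% of MESC and 95.0% of MEF reads on chromosome M matched with 2 mismatches or fewer when the listed position was read as the 5′ base. Reads were counted by 5′ base and strand over GENCODE genes. Sequence-matched counts take exact matches only (78.8% of listed MESC and 82.3% of listed MEF reads). Density is reads per kb and per 1000000 reads outside chromosome M (RPKM). A gene was tested with at least 50 reads in 1 library and called at 4-fold, with 3 reads standing for lower counts. Shares have Clopper-Pearson intervals and ratios exact conditional intervals. Reads carry no sample names, so the edgeR test planned for separable samples was not possible. Scaling factors came from edgeR 4.0.16 and DESeq2 1.42.0 in R 4.3.3, and other steps used Python 3.11.15, numpy 2.4.6, scipy 1.17.1, pandas 2.3.3 and numba 0.67.0. Alternatives covered scaling, read minimum, fold, duplicates, read length, mismatches and pile-up limits, with listing by sequence and start positions without nuclear copy added after the data were seen.

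The rule for names took both rRNA genes, all protein genes, tRNA genes with a pile-up, among the 5 with most reads in a library or 4-fold different, and from the nuclear lists Polrmt, Tfam, Tfb2m, Tefm, Lrpprc and members 4-fold different. Single positions and the base after mt-Tw were named after their values were seen. Members and lists were chosen with earlier results of these data known. Listed symbols were matched by name or RefSeq synonym, and 1 found no match. Sequences were read from the NCBIM37 genome.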

Additional observations from a re-analysis of the deposited data

How the results depend on the processing

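Of 96 recomputed values 56 moved by more than their counting interval or 1.5 times. Each was compared within 1 library or 1 direction, so a change in which cell type was higher was not counted. The listed plus-strand share was lower in MESC with the pile-ups and higher without them. The rRNA to mRNA ratio was lower in MESC as listed, and by sequence slightly higher with overlapping intervals. No paired analysis was possible because the reads carry no sample name, and for the same reason no replicate could be left out. Listing by sequence, unshared starts and the read-length splits of the rRNA ratio and antisense share were chosen after seeing the data. The share of reads on chromosome M was, in MESC and MEF, 0.127% and 0.0826% with each position once, 0.593% and 0.228% without loci similar to ribosomal DNA and 0.462% and 0.266% by sequence. In MESC it was also 0.441% on unshared starts, 0.179% and 0.822% in 35-base and 36-base reads, and 0.239% and 0.653% in these by sequence. The plus-strand share, in MESC and MEF, was 40.4% and 36% with each position once, 37.3% and 31.5% without pile-ups and 23.0% and 29.0% by sequence, and in MESC 19.5% on unshared starts, 34.8% and 19.4% in 35-base and 36-base reads, and 34.9% and 19.3% in these by sequence. The rRNA to mRNA ratio, in MESC and MEF, was 1.96 and 3.96 with each position once, 3.16 and 3.03 by sequence and 3.40 and 3.48 on unshared starts, and in MESC 5.21 and 3.18 in 35-base and 36-base reads and 2.57 in 35-base reads by sequence. The antisense share, in MESC and MEF, was 55.4% and 57.0% with each position once and 55% and 65.3% by sequence, and in MESC 52.9% on unshared starts, 49.4% and 58.4% in 35-base and 36-base reads, and 54.3% and 55.4% in these by sequence. The share at gene 5′ ends, in MESC and MEF, was 1.21% and 1.19% at the first base and 2.82% and 2.51% within 5 bases, and in MEF 1.05% with each position once. Genes 4-fold higher in MESC numbered 5 with a minimum of 200 reads, 5 with each position once, 14 at 2-fold, and 0 with 35-base reads, by sequence (all, 35-base and 36-base MESC reads) and on unshared starts; under TMM or median-ratio scaling they numbered 8. Pile-ups numbered 4 in MESC and 5 in MEF at 0.5% of chromosome M reads and 1 in MESC at 2%. The cause was not tested, except that counting by sequence changes only which reads enter. Depth limits the 16 genes under 50 reads, and counting intervals cover no spread between samples.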
